A study of Mus musculus with 24 samples.

Results

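The comparison set 3 arrays of CpG-B-stimulated DKO cells, which lack both Lyn and Irf5, against 3 arrays of CpG-B-stimulated Irf5-KO cells, which lack Irf5 and carry Lyn. These 6 arrays were chosen by their labels from 24 arrays in 8 groups, and they ask what the loss of Lyn changed in stimulated cells that had no Irf5 to begin with. All cells were bone marrow-derived dendritic cells of mice on a C57BL/6 background, grown for 9 days with 100 ng/ml human Flt3 ligand, a cytokine that drives marrow progenitors to become plasmacytoid and conventional dendritic cells. DKO CpG-B and Irf5-KO CpG-B cells received 150 nM of the class B oligonucleotide ODN 1668 for 6 h. Where a further comparison is named, DKO US and Irf5-KO US are the unstimulated cells of these genotypes, and Lyn-KO CpG-B and WT CpG-B are the stimulated cells with intact Irf5 without and with Lyn, 3 arrays each. The replicates of a genotype were labelled as biological triplicates. Whole cultures were measured and no cells were sorted, so fewer cells of a type and less RNA per cell cannot be told apart in any result below.

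Class B CpG oligonucleotides are short DNAs with unmethylated CpG dinucleotides that are read in endosomes by Toll-like receptor 9. The receptor signals through Myd88 to the transcription factors NF-kB and AP-1 and to interferon regulatory factors such as Irf5 and Irf7, which drive cytokine and type I interferon genes. Lyn is a Src-family tyrosine kinase of B cells and myeloid cells that phosphorylates both activating receptors and inhibitory receptors, and it is also known as a partner that restrains Irf5. Irf5 was absent by genotype from both sides of the comparison.

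Signals are given on a log2 scale relative to the 75th percentile of each array, so a change of 1 is 2-fold, and the level of one gene cannot be set against that of another. A feature is 1 gene symbol, or 1 unnamed transcript, read from its brightest probe, and 20209 features (12648 named) were above background in at least 1 group. Between 24332 and 31879 of 59305 spots per array were well above background. Correlations over the features were 0.993 to 0.994 between arrays of one group and 0.972 to 0.981 between arrays of the 2 groups, and the first principal component of the 6 arrays held 69.1% of the variance. Each of 3 slides held 1 array of every group, always at the same position, so the position on the slide and the group cannot be told apart.

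The probe for Lyn checked the labels. Lyn read −1.12, −1.10 and −1.07 in the DKO CpG-B arrays, against 1.51, 1.47 and 1.46 in the Irf5-KO CpG-B arrays. The groups did not overlap, and the signal was 5.98-fold lower in DKO cells (log2 change −2.58 ± 0.09 SE, adjusted p = 1.13e-12). Irf5 read 5.17, 5.40 and 5.17 in DKO CpG-B cells and 4.58, 4.75 and 5.07 in Irf5-KO CpG-B cells, a change of 0.45 ± 0.09 that passed the threshold in the fit over all 24 arrays but not in a fit over these 6 arrays alone (adjusted p = 0.0639). The Irf5 signal averaged 4.49 ± 0.03 in Lyn-KO CpG-B and 4.16 ± 0.10 in WT CpG-B arrays (SD, n = 3 each), so this probe does not track the Irf5 deletion and checks nothing about it. Its place relative to the deleted part is not given.

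Loss of Lyn moved a large part of what was measured. At an adjusted p under 0.05, 6677 of 20209 features (33.0%) differed: 3659 (18.1%) were higher and 3018 (14.9%) lower in DKO CpG-B cells. A change of at least 2-fold was reached by 1127 of them (5.58%), 467 (2.31%) higher and 660 (3.27%) lower. The median change over all features was 0.06, and the 2 groups of 3 arrays did not overlap for 9152 features (45.3%). The counts given for gene lists below are read against these shares. Where a list has 0 genes in 1 direction, limma at an unadjusted p under 0.05 gave 0 or 1 there unless another count is stated.

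The type I and type III interferon genes rose together. These encode the secreted antiviral cytokines that plasmacytoid dendritic cells make in quantity. Of 20 listed genes 14 were measured, and all 14 of those were higher in DKO CpG-B cells, with a median change of 2.53. Within the 3 slides the median was 2.49, 2.76 and 2.35.

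Ifnb1, the single interferon beta gene, read 2.93, 2.77 and 2.73 in DKO CpG-B arrays, against 0.30, −0.21 and 0.15 in Irf5-KO CpG-B arrays. Every DKO array lay above every Irf5-KO array, a 6.64-fold difference (2.73 ± 0.25, adjusted p = 1.1e-07). Ifna4, an interferon alpha gene that is induced early, read 1.03, 0.68 and 0.43 in DKO arrays and −1.71, −2.55 and −1.90 in Irf5-KO arrays. It was the interferon with the largest change, 6.80-fold (2.77 ± 0.36). Ifna14 read 3.90, 3.58 and 3.47 in DKO arrays and 1.48, 0.87 and 1.11 in Irf5-KO arrays, and Ifna2 differed by almost the same amount (2.52). The alpha genes are near-identical copies whose probes may read one another, so their 11 changes, between 2.44 and 2.77, are not 11 separate observations. Ifnk, an interferon better known from keratinocytes, changed by 0.83 ± 0.19 and Ifnl3, a type III interferon, by 0.70 ± 0.12, the smallest changes of the list.

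Promoters of some interferon and chemokine genes are shown because Toll-like receptor 9 acts on such genes through interferon regulatory factors and NF-kB. The genes are chosen examples and not those with the largest changes. The chemokine genes Xcl1 and Ccl1 changed more than the chemokine genes shown here. The 250 bases before the annotated start are printed 5′ to 3′ on the strand of the gene, from RefSeq on build GRCm38.p6. Capitals mark each match on either strand to GAAANNGAA, a form of the interferon regulatory factor element, or to GGGANNTTC, a form of the NF-kB element.
Ifnb1 (chr4:88522795-88523044, minus strand): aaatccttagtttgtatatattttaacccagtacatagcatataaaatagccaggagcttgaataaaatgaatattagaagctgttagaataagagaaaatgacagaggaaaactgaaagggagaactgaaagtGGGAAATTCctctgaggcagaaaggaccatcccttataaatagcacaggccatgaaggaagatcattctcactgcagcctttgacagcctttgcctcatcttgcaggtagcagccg
Ifna4 (chr4:88841566-88841815, plus strand): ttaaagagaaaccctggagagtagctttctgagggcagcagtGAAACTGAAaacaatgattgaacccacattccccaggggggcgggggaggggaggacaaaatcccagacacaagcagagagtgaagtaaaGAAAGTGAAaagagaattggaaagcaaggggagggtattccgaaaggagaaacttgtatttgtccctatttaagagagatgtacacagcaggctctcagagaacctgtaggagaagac
Ifna14 (chr4:88571799-88572048, minus strand): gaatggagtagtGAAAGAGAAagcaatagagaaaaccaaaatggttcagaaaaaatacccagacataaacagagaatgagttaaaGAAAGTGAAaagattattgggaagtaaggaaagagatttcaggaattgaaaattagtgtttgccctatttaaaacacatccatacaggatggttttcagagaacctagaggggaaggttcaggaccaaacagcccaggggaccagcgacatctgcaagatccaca
Cxcl1 (chr5:90890995-90891244, plus strand): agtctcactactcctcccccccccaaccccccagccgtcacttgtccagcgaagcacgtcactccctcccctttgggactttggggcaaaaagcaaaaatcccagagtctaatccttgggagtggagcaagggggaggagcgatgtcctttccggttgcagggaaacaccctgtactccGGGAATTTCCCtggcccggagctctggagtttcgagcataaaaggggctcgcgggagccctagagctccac
Cxcl2 (chr5:90903649-90903898, plus strand): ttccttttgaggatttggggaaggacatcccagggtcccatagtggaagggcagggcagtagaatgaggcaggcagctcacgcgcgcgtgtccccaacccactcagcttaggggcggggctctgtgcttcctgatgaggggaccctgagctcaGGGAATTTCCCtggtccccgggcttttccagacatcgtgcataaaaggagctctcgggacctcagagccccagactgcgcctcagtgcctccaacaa
Cxcl3 (chr5:90785851-90786100, plus strand): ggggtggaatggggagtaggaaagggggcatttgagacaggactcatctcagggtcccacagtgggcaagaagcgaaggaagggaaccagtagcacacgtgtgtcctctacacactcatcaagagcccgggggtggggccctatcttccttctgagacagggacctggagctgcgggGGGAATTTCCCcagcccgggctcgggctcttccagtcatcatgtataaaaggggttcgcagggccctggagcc
In Ifnb1 the capitals are 1 NF-kB-type match, which begins 116 bases before the start, and no GAAANNGAA was found in this window. Other forms of either element were not searched for, so a window without a match is not shown to lack the element. Ifna4 held GAAANNGAA beginning at 208 and 118 bases and Ifna14 at 238 and 165 bases before the start. Cxcl1 held GGGANNTTC at 71 bases, Cxcl2 at 97 and Cxcl3 at 73, and in each of them the match overlaps a match on the other strand, so the capitals run over both. The motifs do not overlap each other in these windows. Over 32851 RefSeq promoters of this length, 7.13% held GAAANNGAA and 3.23% held GGGANNTTC on either strand. Of the 13 measured interferon genes with a promoter in the table, 8 (61.5%) held the first motif and 1 (7.69%) the second. The alpha genes among them are near-identical copies, so these are not 13 separate observations. Of the 15 measured chemokine genes with one, 4 (26.7%) held the first and 6 (40.0%) the second. A match is a run of letters and says nothing of whether a factor was bound.

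The interferon-stimulated genes changed little at this time. Of 61 listed interferon-stimulated genes, which encode antiviral effectors and sensors, 56 were measured, 1 was higher and 0 were lower (4 and 0 at an unadjusted p under 0.05 in limma), with a median change of 0.08. Isg15, a ubiquitin-like antiviral modifier, read 9.82, 10.12 and 10.04 in DKO CpG-B arrays and 9.91, 9.95 and 9.80 in Irf5-KO CpG-B arrays. These values overlapped, with a change of 0.11 ± 0.21 (adjusted p = 0.745). Cxcl10, an interferon-induced chemokine, read 9.15, 9.18 and 9.29 in DKO arrays against 9.10, 9.08 and 9.01 in Irf5-KO arrays, and Irf7, the factor that amplifies interferon alpha genes, changed by 0.18. The 1 gene that passed was Bst2, the antiviral tetherin, which averaged 8.14 ± 0.13 in DKO and 7.86 ± 0.11 in Irf5-KO arrays (SD, n = 3 each; limma change 0.28, adjusted p = 0.0146). Its call was lost without DKO replicate 3 (adjusted p = 0.0814) and without Irf5-KO replicate 1 (0.0711), which left 0 genes called, whereas 4 were higher without Irf5-KO replicate 3. No array of either group was read at another time after stimulation.

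**Figure D1:**
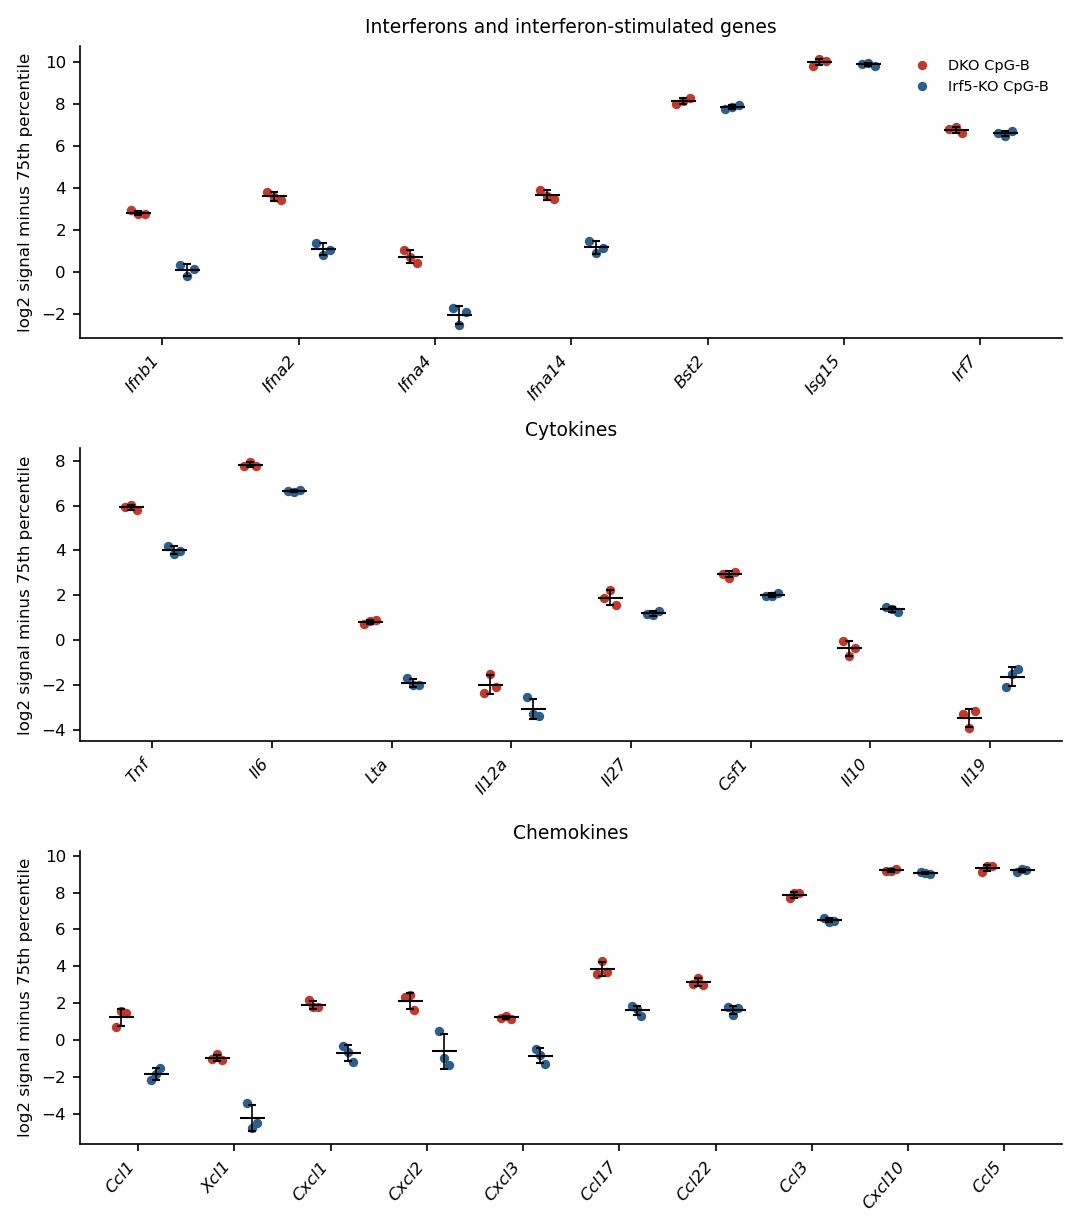
Signal of secreted products and interferon-stimulated genes on each array (points; log2 relative to the 75th percentile of the array), with the mean and SD of 3 arrays, DKO CpG-B in red and Irf5-KO CpG-B in blue. The interferon points of the groups are separated on every array, by a median of 2.53 over the 14 genes measured, whereas those of Isg15 overlap, and of the cytokines plotted Il10 and Il19 are lower in DKO cells. Heights compare groups within a gene only.

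Inflammatory cytokines rose with the interferons, but not as one block. Of 28 listed genes 19 were measured, 12 were higher and 2 lower, and the median change was 0.54. Tnf, the main early inflammatory cytokine, read 5.95, 6.03 and 5.80 in DKO CpG-B arrays against 4.21, 3.86 and 3.98 in Irf5-KO CpG-B arrays, a clear gap of 1.91 ± 0.17. Lta, its close relative lymphotoxin alpha, read 0.71, 0.86 and 0.87 in DKO arrays and −1.72, −2.03 and −2.01 in Irf5-KO arrays, 6.64-fold higher (2.73 ± 0.18). Il6, which acts on B cells and the liver, read 7.75, 7.95 and 7.79 in DKO arrays against 6.63, 6.59 and 6.68 in Irf5-KO arrays. All 3 genes were higher on every DKO array, Il6 by 1.20 ± 0.12. Il12a, the p35 subunit of interleukin 12, changed by 1.08, Ifng by 0.98, the macrophage growth factor Csf1 by 0.92 and Il27 by 0.70. Of 3 Csf1 probes only 1 was called higher. Il1a read 1.28 higher but with a standard error of 0.99 it did not pass (adjusted p = 0.36), although it did in a fit of the 6 arrays alone (0.0498).

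The 2 cytokines that fell belong to the interleukin 10 family. Il10, which restrains dendritic cells and macrophages, read −0.04, −0.72 and −0.36 in DKO CpG-B arrays and 1.46, 1.40 and 1.24 in Irf5-KO CpG-B arrays. It was 3.34-fold lower without overlap (−1.74 ± 0.19, adjusted p = 8.47e-07). Il19 read −3.32, −3.93 and −3.18 in DKO arrays, none of them well above background, against −2.09, −1.51 and −1.30 in Irf5-KO arrays, and was at least 2.84-fold lower. A bound of this kind compares the brighter group's mean with the detection limit of the dimmer group's arrays, the lowest signal there that was well above background. Il1rn, the interleukin 1 receptor antagonist, read 0.77 lower and passed only in other settings, normexp among them (adjusted p = 0.000412).

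Of 25 listed chemokines 20 were measured, 14 were higher and 0 were lower, with a median change of 1.11. After normexp 2 were lower, and 1 was lower in a fit of the 6 arrays alone or without Irf5-KO replicate 1. Ccl1, a ligand of Ccr8, read 0.70, 1.56 and 1.45 in DKO CpG-B arrays against −2.18, −1.85 and −1.51 in Irf5-KO CpG-B arrays, 8.46-fold higher (3.08 ± 0.51). Xcl1, which attracts Xcr1-bearing dendritic cells, read −1.04, −0.76 and −1.07 in DKO arrays and −3.40, −4.75 and −4.48 in Irf5-KO arrays, only 1 of which was well above background. Its change of 3.25 ± 0.28 was 1.55 when the background was modelled by normexp, a setting that compresses dim signals. The neutrophil attractants Cxcl1, Cxcl2 and Cxcl3 stood 2.63, 2.75 and 2.08 higher. Cxcl1 read 2.17, 1.80 and 1.78 in DKO arrays against −0.33, −0.63 and −1.18 in Irf5-KO arrays. The Ccr4 ligands Ccl17 and Ccl22 were 2.25 and 1.52 higher, Ccl3, a chemoattractant of monocytes and T cells, 1.37 and the membrane-bound Cx3cl1 1.43. Ccl5 (0.14) and Cxcl9 (0.42), which interferons also induce, did not pass, although Cxcl9 did in a fit of the 6 arrays alone (adjusted p = 0.0453).

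Among 17 listed ligands of the TNF superfamily, 10 were measured, 5 were higher and 2 lower. Beside Tnf and Lta, Tnfsf15, a costimulator of T cells, averaged 4.89 ± 0.18 in DKO CpG-B and 3.00 ± 0.19 in Irf5-KO CpG-B arrays (SD, n = 3 each), 3.71-fold higher without overlap. Cd70 and Tnfsf8, ligands of Cd27 and Cd30, were 0.80 and 0.90 higher. Tnfsf9, the ligand of 4-1BB, was 0.63 lower. Tnfsf14, also named LIGHT, was the other gene called lower, with no size given because it was well above background on no DKO array and 2 of 3 Irf5-KO arrays. Its call was lost without DKO replicate 3 (adjusted p = 0.064) or Irf5-KO replicate 2 (0.104).

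The signalling genes upstream showed smaller and mixed differences. Of 25 genes of the Toll-like receptor 9 pathway, 10 were higher and 2 lower, with a median of 0.12, but only 4 were called higher after normexp. Tlr9 itself changed by 0.23, a call lost after normexp (adjusted p = 0.0588), and Myd88, its adaptor, by 0.01 (adjusted p = 0.909). Unc93b1 and Slc15a4, which bring the receptor to endosomes and serve its signalling there, were 0.47 and 0.48 higher, whereas Tirap, an adaptor, was 0.50 lower.

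Of 28 measured NF-kB genes, 11 were higher and 6 lower. Nfkb1, the p50 subunit gene, rose by 0.93, Nfkbiz, an atypical nuclear IkB protein needed for Il6 induction, by 1.07 and Ptgs2, the inducible cyclooxygenase, by 1.61. Ptgs2 read 3.97, 4.54 and 3.63 in DKO CpG-B arrays against 2.50, 2.53 and 2.27 in Irf5-KO CpG-B arrays. The inhibitors were split: Tnip2 fell by 1.00 and Tnip3 by 0.82, while Nfkbib, IkB beta, rose by 0.81. Nfkbia, the classical IkB alpha, changed by 0.15 and did not pass (adjusted p = 0.159). The 24 measured genes of the AP-1, EGR and ERK feedback group split evenly, 7 higher and 7 lower. Among the lower ones were Fosl2 (−1.36), an AP-1 subunit, Dusp1 (−1.18) and Dusp4 (−1.06), phosphatases that switch off MAP kinases. Of 2 Fosl2 probes only 1 was called lower. Dusp1 read 4.22, 3.75 and 3.97 in DKO arrays against 4.91, 5.26 and 5.30 in Irf5-KO arrays. Maff, a small Maf factor, rose by 1.52.

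Both Irf8 and Irf4, interferon regulatory factors, differed in opposite directions. Irf8, which sets the identity of plasmacytoid and type 1 conventional dendritic cells, read 6.84, 6.92 and 6.91 in DKO CpG-B arrays against 5.38, 5.02 and 5.30 in Irf5-KO CpG-B arrays, 3.16-fold higher (1.66 ± 0.09). Irf4, which serves type 2 conventional dendritic cells and plasma cells, read 2.31, 2.28 and 2.28 in DKO arrays and 3.22, 3.18 and 3.14 in Irf5-KO arrays. The replicates were tight and the groups far apart, with a change of −0.89 ± 0.10. Irf1, Irf2, Irf7 and Irf9 did not pass, and Irf3 passed only after quantile normalization (−0.15, adjusted p = 0.0285).

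Of 20 measured Src-family kinases and their regulators 5 were higher, or 3 without DKO replicate 2, and 6 were lower, Lyn among them, with a median of 0.02. Fgr, a myeloid member, read 1.11, 0.92 and 0.92 in DKO CpG-B arrays against 2.10, 2.41 and 2.21 in Irf5-KO CpG-B arrays, 2.39-fold lower. Lck fell by 0.65 and Fyn by 0.38. The adaptor Dok3, which recruits inhibitory enzymes, fell by 1.08. The kinase Syk, on the activating side of these pathways, rose by 0.50, and so did Csk (0.37), which inhibits Src kinases.

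Lyn acts through inhibitory receptors whose tyrosine motifs it phosphorylates, and 22 genes of these receptors and their phosphatases were measured. Of them 10 were higher and 4 lower. Fcgr2b, the inhibitory IgG receptor, read 1.56, 1.30 and 1.17 in DKO CpG-B arrays against 2.99, 3.36 and 3.04 in Irf5-KO CpG-B arrays, 3.46-fold lower (−1.79 ± 0.12). Pirb fell by 0.54 and Cd300lf by 1.17. Cd300lf has 3 probes above the filter, 2 of which were lower and 1 of which was not called. Havcr2, also named Tim-3, read 0.70, 0.60 and 0.79 in DKO arrays against −1.05, −1.03 and −0.99 in Irf5-KO arrays, 3.29-fold higher. Cd5 (1.80), the collagen receptor Lair1 (1.70) and Pecam1 (1.34) were higher as well, and so was Ptpn6 (0.84), which encodes the phosphatase SHP-1 that these receptors recruit. The list thus held strong changes in both directions.

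Cytokine receptor and STAT genes were split, with 9 of 33 higher and 8 lower. Il4ra, the interleukin 4 receptor alpha chain, read 0.56, 0.24 and 0.14 in DKO CpG-B arrays against 1.69, 1.93 and 1.82 in Irf5-KO CpG-B arrays (−1.50 ± 0.12). Il18r1 fell by 1.28, Il6ra by 0.92 and Socs3, a feedback inhibitor, by 0.65, whereas Stat4 rose by 0.84 and Il10ra by 0.69. Of 2 Il18r1 probes only 1 was called, and the other changed by −0.19.

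Maturation and costimulation genes were mostly higher: 16 of 25 measured genes rose and 2 fell, with a median of 0.37. Cd40 read 7.79, 7.83 and 7.91 in DKO CpG-B arrays and 7.43, 7.40 and 7.45 in Irf5-KO CpG-B arrays, a small but separated difference of 0.42. Cd80 rose by 0.60, Cd83 by 0.39 and Icosl by 0.79, while Cd86 (0.01) did not pass. Slamf1, a homophilic receptor of activated lymphocytes and dendritic cells, went against the rest. It read −1.85, −1.74 and −2.02 in DKO arrays against 0.42, 0.96 and 0.83 in Irf5-KO arrays, 6.10-fold lower (−2.61 ± 0.20). Pdcd1lg2, also named PD-L2, fell by 0.90. Of 11 measured genes of MHC class II presentation 6 rose and 0 fell, led by H2-Eb2 (1.37), while H2-Ab1 (0.11) and Ciita (0.22), the master regulator of these genes, did not pass.

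**Figure D2:**
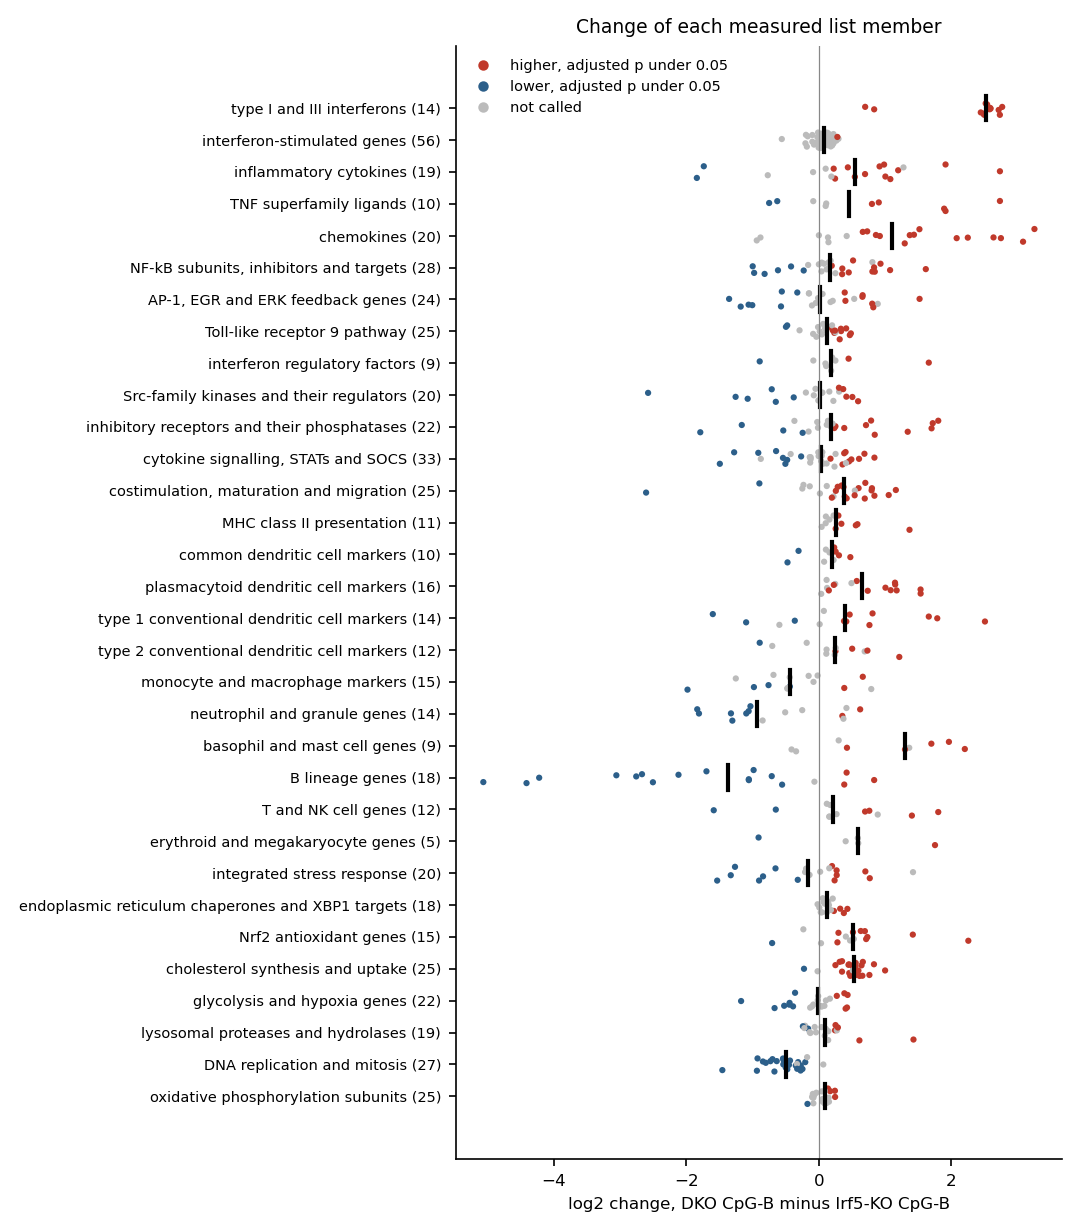
Log2 change, DKO CpG-B minus Irf5-KO CpG-B, of each measured member of 32 gene lists (points; number measured in brackets), with the median of each list as a bar. Red points were called higher, blue points lower and grey points not called; the median is 2.53 for the interferons and 0.08 for the interferon-stimulated genes, the B lineage genes reach −5.07 and nearly all replication genes lie below 0.

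Markers of the cell types in a Flt3 ligand culture were set beside these results. Of 10 common dendritic cell markers 4 were higher and 2 lower, and only 1 was called higher after quantile normalization and 2 without DKO replicate 2. In a fit of the 6 arrays alone 0 were called higher and 1 lower. Their summed signal on a linear scale ran over 1395 to 1590 in DKO CpG-B arrays and 1288 to 1382 in Irf5-KO CpG-B arrays. Flt3, Itgax and Cd74, which dendritic cells express but not they alone, were well above background on all 6 arrays.

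Plasmacytoid dendritic cell markers were higher in 11 of 16 cases and lower in 0, with a median of 0.65 and slide medians of 0.45, 0.73 and 0.83. Their summed signal ran over 799.0 to 854.0 in DKO CpG-B arrays against 492.1 to 565.8 in Irf5-KO CpG-B arrays. Runx2, a transcription factor of these cells, read 0.32, 0.26 and 0.06 in DKO arrays against −1.11, −1.74 and −1.12 in Irf5-KO arrays, although the other of its 2 probes was not called. Ly6d (1.15), Spib (1.00) and Tcf4 (0.57), the factor that defines the lineage, also rose. Siglech, a receptor specific to these cells in mice, read 7.62, 7.78 and 7.94 in DKO arrays and 7.71, 7.64 and 7.62 in Irf5-KO arrays. The brighter Siglech probe was not called (adjusted p = 0.503), and the other was 0.97 higher. Plasmacytoid markers moved the same way as the interferon genes, by less, and their part in that result was not tested.

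The type 1 conventional dendritic cell list was split, 8 of 14 higher and 3 lower. Its summed signal ran over 326.4 to 339.2 in DKO CpG-B arrays against 220.5 to 232.1 in Irf5-KO CpG-B arrays. A linear sum is weighted to bright genes, here above all Irf8, so it does not show a rise of the whole list. Xcr1, the receptor of Xcl1, read −0.07, 0.23 and −0.03 in DKO arrays against −2.27, −2.29 and −2.84 in Irf5-KO arrays, 5.68-fold higher. The scavenger receptor Cd36 rose by 1.79 and Irf8 as above. Batf3, the factor these cells need, read 3.51, 3.13 and 3.23 in DKO arrays against 4.30, 4.38 and 4.48 in Irf5-KO arrays and fell by 1.10, and Cd24a fell by 1.60. Clec9a changed by 0.38, a call lost in a fit of the 6 arrays alone (adjusted p = 0.0589). Of 12 type 2 markers 4 were higher, or 2 without DKO replicate 1 or 2, and 1 was lower, with summed signals of 193.0 to 216.6 in DKO and 197.9 to 206.3 in Irf5-KO arrays.

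Most B lineage genes fell. Of 19 listed genes 18 were measured, 3 were higher and 14 lower, with a median of −1.38. Pou2af1, a coactivator of B cells and plasma cells, read 0.25, −1.03 and −1.22 in DKO CpG-B arrays against 4.44, 4.57 and 4.18 in Irf5-KO CpG-B arrays. It was 33.5-fold lower, the largest fall of a named gene by the rule used here (−5.07 ± 0.37). Mzb1, a chaperone of antibody-secreting and plasmacytoid cells, read 0.91, −0.17 and −0.45 in DKO arrays against 4.54, 4.67 and 4.32 in Irf5-KO arrays, and Jchain, the joining chain of IgM and IgA, was 18.7-fold lower. In all 3 genes DKO replicate 1 was the highest DKO array, still far below the Irf5-KO arrays. Cd79a, a part of the B cell receptor, was not well above background on any DKO array and was at least 4.94-fold lower. Bank1 was likewise not well above background in DKO arrays.

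Not every listed gene fell, and Blnk, which couples the B cell receptor to its downstream enzymes and is also expressed by plasmacytoid cells, was 0.83 higher. The summed signal of the list ran over 194.0 to 203.0 in DKO CpG-B arrays and 199.4 to 230.6 in Irf5-KO CpG-B arrays, a narrow overlap. Mzb1 and Jchain are also expressed by plasmacytoid dendritic cells. The part of B lineage cells and that of plasmacytoid cells in these results were not tested.

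Basophil and mast cell genes rose: 5 of 9 measured genes (16 listed) were higher and 0 lower, with a median of 1.30 and slide medians of 1.54, 1.10 and 0.35. Mcpt8, a basophil protease, read 0.22, 0.30 and 0.46 in DKO CpG-B arrays against −1.83, −1.19 and −1.08 in Irf5-KO CpG-B arrays. Prss34, another basophil protease, read 1.23, 0.87 and 1.04 in DKO arrays and −0.31, −0.23 and −0.23 in Irf5-KO arrays. Cpa3, carboxypeptidase A3, read −1.01, −1.26 and 0.54 in DKO arrays against −2.65, −2.65 and −2.32 in Irf5-KO arrays, with DKO replicate 3 standing above the other DKO arrays. Fcer1a, the alpha chain of the IgE receptor, was well above background on all 3 DKO arrays and on none of the Irf5-KO arrays, at least 3.44-fold higher. The summed signal of the list overlapped between groups, over 51.7 to 58.0 in DKO arrays and 55.3 to 66.5 in Irf5-KO arrays, and Il13 (−0.41) did not pass. Hdc, the histamine-making enzyme, read 0.34 lower and passed only in other settings, quantile normalization among them (adjusted p = 0.0114). The median of the list was 0.77 without Irf5-KO replicate 1 and 0.36 after normexp.

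Neutrophil granule genes were lower in 7 of 14 cases and higher in 2, or 0 without Irf5-KO replicate 2, with a median of −0.94. Lcn2, an iron-withholding granule protein, read 2.53, 2.03 and 1.57 in DKO CpG-B arrays against 3.83, 4.10 and 3.64 in Irf5-KO CpG-B arrays. Camp, an antimicrobial granule peptide, fell by 1.06. Mpo, a protein of the earliest granules, was 0.62 higher, a call that was lost without Irf5-KO replicate 2 (adjusted p = 0.0659). The summed signal ran over 27.5 to 61.4 in DKO arrays, where replicate 1 was the highest, against 63.5 to 84.3 in Irf5-KO arrays. Monocyte and macrophage markers were lower in 4 of 15 cases, or 7 without Irf5-KO replicate 1, and higher in 2, or 1 without DKO replicate 1 or 2 or Irf5-KO replicate 1 or 3. Mrc1, the mannose receptor, fell by 1.98, and the slide medians of the list were 0.13, −0.38 and −1.02. Of 12 T and NK cell genes 4 were higher and 2 lower, and of 5 erythroid and megakaryocyte genes 1 each. The share of these cells in the results above was not tested.

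**Figure D3:**
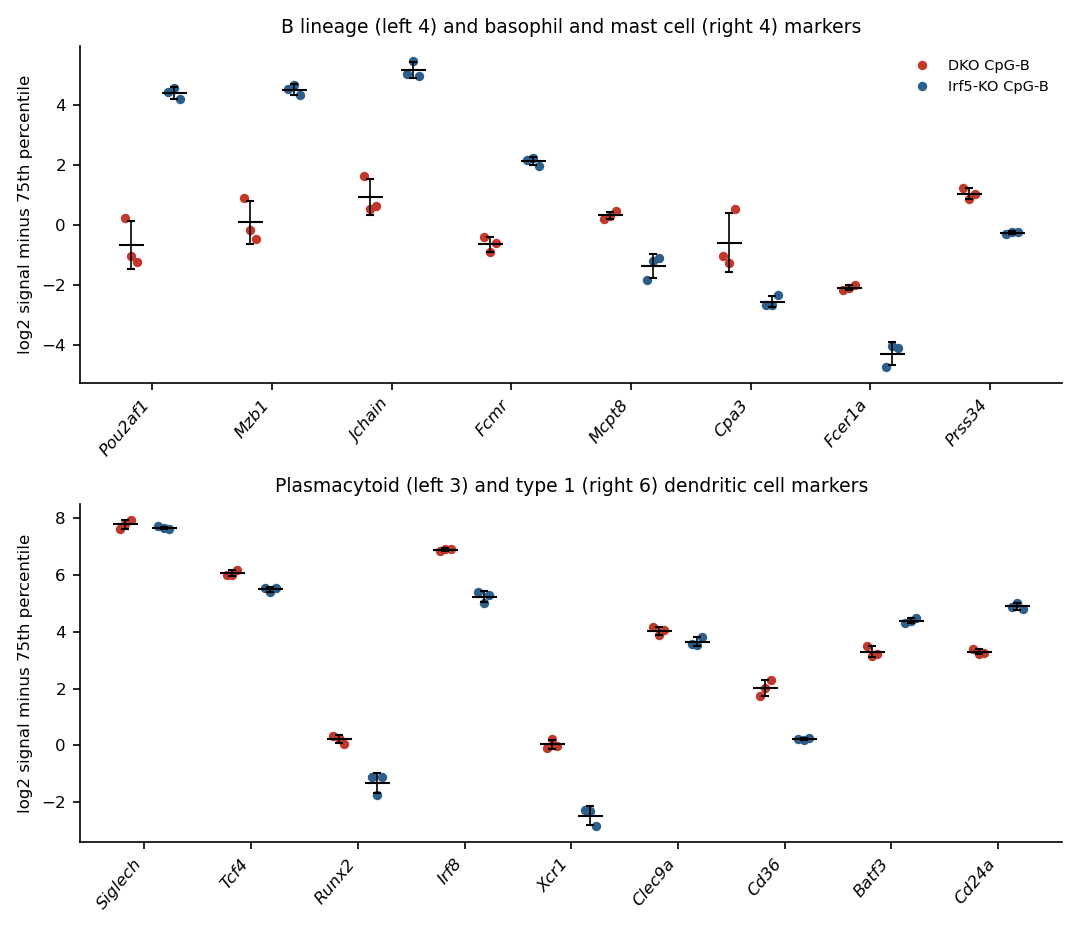
Signal of cell type markers on each array (points; log2 relative to the 75th percentile of the array), with the mean and SD of 3 arrays, DKO CpG-B in red and Irf5-KO CpG-B in blue. The genes plotted are chosen members of their lists. The 4 B lineage genes plotted are lower and the 4 basophil and mast cell genes higher on every DKO array. Over the full lists, 3 of 18 B lineage genes were called higher and 4 of 9 basophil and mast cell genes were not called. Siglech overlaps, and the type 1 markers split into higher (Irf8, Xcr1, Clec9a, Cd36) and lower (Batf3, Cd24a).

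Genes of DNA replication and mitosis fell as a group. Of 27 measured genes 24 were lower and 0 were higher, with a median of −0.50. Rrm2, the inducible subunit of ribonucleotide reductase, read 1.84, 2.13 and 1.95 in DKO CpG-B arrays against 3.42, 3.62 and 3.26 in Irf5-KO CpG-B arrays, 2.75-fold lower. Mcm5, a subunit of the replicative helicase, read 2.29, 2.65 and 2.41 in DKO arrays against 3.42, 3.41 and 3.30 in Irf5-KO arrays (−0.93 ± 0.09). Mcm7 (−0.85), Mcm3 (−0.80) and Mcm2 (−0.73) of the same complex, and Mki67 (−0.54), a marker of cycling cells, fell with them. In unstimulated cells 0 of the 27 genes were called in either direction between DKO US and Irf5-KO US (limma, 0 higher and 3 lower at an unadjusted p under 0.05).

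Genes of cholesterol synthesis and uptake rose. Of 25 measured genes 22 were higher and 1 lower, with a median of 0.52. Dhcr7, the last enzyme of cholesterol synthesis, read 1.39, 1.30 and 1.39 in DKO CpG-B arrays against 0.52, 0.16 and 0.40 in Irf5-KO CpG-B arrays. Sqle, which oxidises squalene, rose by 0.56 and Insig1, a sensor of sterols, by 0.61. No change clearly passed 2-fold, although that of Dhcr7 lay at about this size. The single gene called lower, Pmvk (−0.23), lost its call without DKO replicate 1 (adjusted p = 0.099) or 2 (0.0719) or without Irf5-KO replicate 2 (0.112). Between DKO US and Irf5-KO US 8 of the 25 genes were higher and 0 lower.

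Antioxidant genes of the Nrf2 pathway were higher in 9 of 15 cases and lower in 1. Srxn1, sulfiredoxin, read 4.48, 4.22 and 4.15 in DKO CpG-B arrays against 2.08, 2.18 and 1.81 in Irf5-KO CpG-B arrays, 4.77-fold higher (2.25 ± 0.11). Nqo1 rose by 1.42 and Gclm, a subunit of the glutathione-making ligase, by 0.73, whereas Gclc, the other subunit of that enzyme, fell by 0.71. Hmox1 read 0.47 higher and passed only without DKO replicate 3 (adjusted p = 0.0181) or with the slide as a block (0.0303). The integrated stress response was split, 6 of 20 higher and 7 lower, with the serine synthesis enzyme Phgdh at −1.33 and the cysteine-making enzyme Cth at −1.54. Glycolysis, lysosomal, endoplasmic reticulum and oxidative phosphorylation genes had medians between −0.01 and 0.12, and their counts depended on the processing or on single arrays. Of 22 glycolysis and hypoxia genes 5 were higher and 7 lower, but 3 were higher without Irf5-KO replicate 1, DKO replicate 1 or DKO replicate 2. Of 19 lysosomal genes 5 were higher and 2 lower, but 5 were lower without Irf5-KO replicate 1 and 0 without DKO replicate 3 or Irf5-KO replicate 2, and the median was −0.06 without DKO replicate 1. Of 25 oxidative phosphorylation genes 4 were higher and 1 lower, but 2 were higher and 7 lower after quantile normalization, and 2 and 0 without Irf5-KO replicate 1 or DKO replicate 3. Of 18 endoplasmic reticulum genes 4 were higher, or 2 after normexp, and 0 lower.

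**Figure D4:**
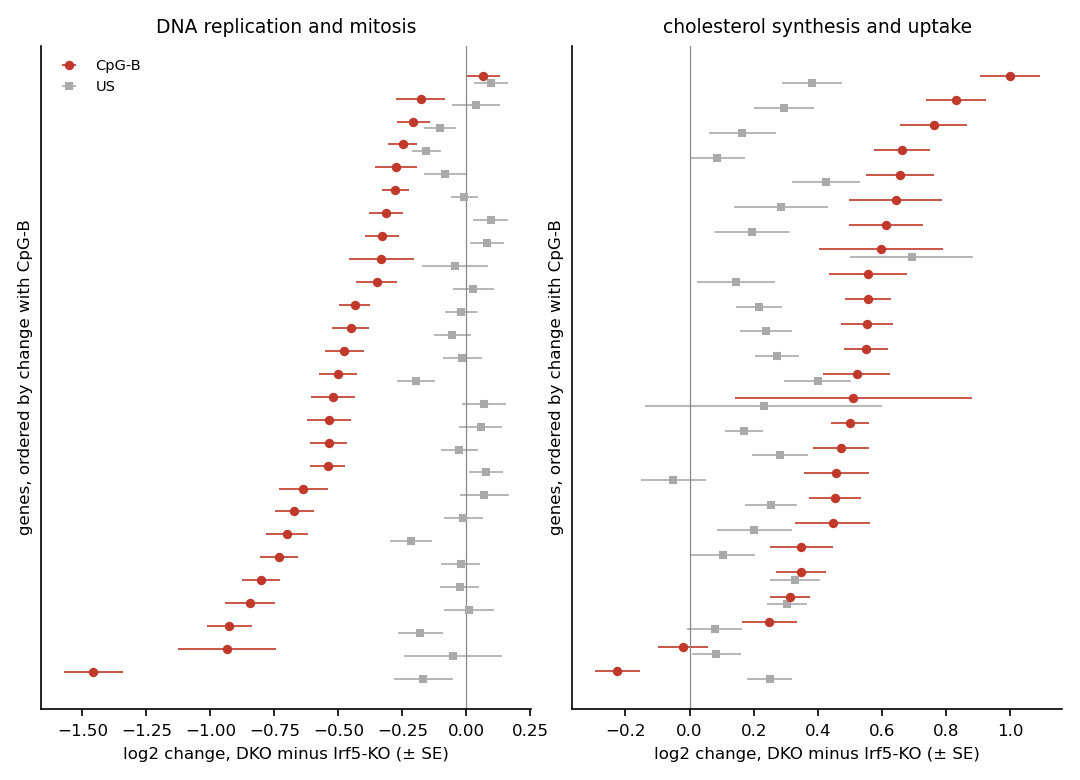
Log2 change with its standard error, DKO minus Irf5-KO, of each measured replication and mitosis gene (left) and cholesterol gene (right), 1 gene per line in order of its change with CpG-B, with CpG-B (red circles) and unstimulated (grey squares). With CpG-B 24 of 27 replication genes were called lower and 22 of 25 cholesterol genes higher; unstimulated, 0 and 8 were called in those directions.

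The genes with the largest rises lay partly outside these lists. Notch3, a receptor of the Notch pathway, read 1.41, 1.36 and 1.96 in DKO CpG-B arrays against −2.02, −2.33 and −1.85 in Irf5-KO CpG-B arrays, 12.5-fold higher (3.64 ± 0.26). Ackr1, an atypical receptor that binds chemokines without signalling, read −1.45, −1.12 and −1.19 in DKO arrays and was well above background on no Irf5-KO array, at least 6.62-fold higher. Pxylp1, a phosphatase that acts on xylose during proteoglycan synthesis, read 1.28, 1.42 and 1.48 in DKO arrays against −1.46, −1.65 and −1.38 in Irf5-KO arrays. The remaining genes among the top 15 rises were Xcl1, Tnni1, Sardh, Ccl1, Nrn1, Gm829, Cadm3, Macc1, Penk, Ifna4, Cxcl2 and Lta, between 2.73 and 3.25. Of 2 Cadm3 probes only 1 was called higher.

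Among the top 15 falls, 3 were the B lineage genes Pou2af1, Mzb1 and Jchain. Timd2, a receptor that binds ferritin, read −2.17, −3.01 and −3.02 in DKO CpG-B arrays against 2.04, 2.36 and 1.80 in Irf5-KO CpG-B arrays, 27.9-fold lower. Hes5, a target of Notch signalling, went the opposite way to the receptor Notch3. It read −3.24, −3.27 and −4.43 in DKO arrays, 1 of which was well above background, against 0.26, 0.14 and −0.20 in Irf5-KO arrays. Wnt10a, a secreted Wnt ligand, read −1.78, −3.43 and −3.65 in DKO arrays against 1.47, 1.62 and 0.93 in Irf5-KO arrays, and Alpl, tissue-nonspecific alkaline phosphatase, fell by 3.62. The falls of Muc1, Gfra1, Amigo2, Trib2, Oosp1, Shisa8 and Fndc4 are bounds, between at least 2.95-fold and at least 6.47-fold, and Endou fell by 4.25.

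Penk, which encodes proenkephalin, lies 0.34 Mb from Lyn and read −0.43, −0.06 and −1.71 in DKO CpG-B arrays against −4.28, −3.40 and −2.97 in Irf5-KO CpG-B arrays. Within 10 Mb of Lyn, 17 of 34 measured genes with a symbol were called, 10 higher and 7 lower, and 4 of them changed at least 2-fold. Over all features 33.0% were called, but that share includes unnamed transcripts, so the 2 bases differ. Within 5 Mb 46.7% of 15 genes and within 20 Mb 43.1% of 51 genes were called. Penk was well above background on all 3 DKO CpG-B arrays and 1 Irf5-KO CpG-B array, on all 3 DKO US arrays and no Irf5-KO US array, and on all 3 Lyn-KO CpG-B arrays and 1 WT CpG-B array. Whether sequence that differs around the targeted locus has a part in these changes was not tested.

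The same comparison without stimulation shares no array with the one above. Between DKO US and Irf5-KO US 1081 features (5.35%) were called, 501 (2.48%) higher and 580 (2.87%) lower. Of these, 634 were called in the same direction with CpG-B, which is 58.6% of the unstimulated calls and 9.50% of the 6677 CpG-B calls, and 114 were called in the opposite one. The difference of the 2 Lyn effects, tested in the same fit, passed for 3549 features (17.6%), 1732 (8.57%) with a more positive effect with CpG-B and 1817 (8.99%) with a more negative one.

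Tnf and Il6, well above background on all 3 arrays of both unstimulated groups, had a greater Lyn effect with CpG-B, by 1.76 for Tnf and 1.10 for Il6. The interferon genes were mostly too dim without CpG-B for this comparison. Only 4 of the 14 were well above background on all 3 DKO US arrays and 5 on all 3 Irf5-KO US arrays, while 6 and 5 were on none, so no count of them is given. Ifnb1, well above background on 1 DKO US and 2 Irf5-KO US arrays, read 0.92 lower in DKO US than in Irf5-KO US cells, and the test of the difference of effects passed (3.65 ± 0.35, adjusted p = 1.1e-06). Lta (3.94), Ccl1 (3.42), Notch3 (3.90) and Slamf1 (−2.58) passed as well, but none of them was well above background on all 6 unstimulated arrays, so these sizes rest in part on readings at background. Rrm2 (−1.29) and 20 of 27 replication genes had a more negative effect with CpG-B. Irf8 averaged 7.72 ± 0.04 in DKO US and 7.49 ± 0.07 in Irf5-KO US arrays (SD, n = 3 each), against the CpG-B levels of 6.89 ± 0.04 in DKO and 5.23 ± 0.19 in Irf5-KO arrays. The levels read lower with CpG-B in both genotypes, and the Lyn effects differed by 1.43 ± 0.13. For B lineage genes the effect was already present without CpG-B, with 13 of 18 lower and 0 higher. The median change of the list was −2.84 without CpG-B and −1.38 with it. The difference of effects was more positive with CpG-B for 7 of the 18 genes and more negative for 0, against 8.57% and 8.99% of all features. Mzb1 was 4.21 lower in DKO US cells, 0.21 from its change with CpG-B. Il10 was called lower without CpG-B, where it was well above background on no DKO US array and all 3 Irf5-KO US arrays. The difference of its effects (2.06) rests on that dim reading and was lost after normexp.

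In cells with intact Irf5, 5084 features (25.2%) were called between Lyn-KO CpG-B and WT CpG-B, which again shares no array. Of these 3605 were called in the same direction in the Irf5-deficient cells, which is 70.9% of the calls with Irf5 and 54.0% of the calls without it, and 68 in the opposite one. Between Lyn-KO CpG-B and WT CpG-B 4.35% of features were called with at least 2-fold change. Among calls of that size in both, 600 had the same direction and 10 the opposite. The difference between the 2 Lyn effects passed for 730 features (3.61%), 332 (1.64%) more positive without Irf5 and 398 (1.97%) more negative, a count that was 304 when the other 4 groups were left out of the fit.

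The interferon genes were among the features whose Lyn effect did not pass this test of difference. Ifnb1 was 2.73 higher without Irf5 and 2.72 higher with it (difference 0.01 ± 0.35, adjusted p = 0.99), and 0 of the 14 interferon genes passed (limma, also 0 at an unadjusted p under 0.05). The summed signal of the 14 genes ran over 98.0 to 132.4 in DKO CpG-B and 19.5 to 27.4 in Irf5-KO CpG-B arrays, and over 264.3 to 312.0 in Lyn-KO CpG-B and 34.8 to 53.9 in WT CpG-B arrays. Il6 did pass. Its Lyn effect was 1.20 without Irf5 and 0.31 with Irf5, the second not called by itself (adjusted p = 0.073), and the difference was 0.89 ± 0.17 (adjusted p = 0.0057). For Il10 the effects were −1.74 and −0.14, for Irf8 1.66 and 0.81, and for the helicase genes Mcm5 and Mcm2 −0.93 and −0.73 without Irf5 against −0.04 and −0.02 with it.

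Some genes were called in opposite directions. Tbx21, which encodes the T-bet factor of T helper 1 and NK cells, was 0.70 higher without Irf5 and 1.60 lower with Irf5, a difference of 2.30 ± 0.22. Its rise without Irf5 had an adjusted p of 0.0501 in a fit of the 6 arrays alone. Cd300lf was 1.17 lower without Irf5 and 0.40 higher with it. Mcpt8 was 1.70 higher without Irf5 and 0.82 lower with it (difference 2.51 ± 0.37), and 4 of 9 basophil and mast cell genes had a more positive effect without Irf5. Fcmr, the IgM Fc receptor on the B lineage list, was 2.76 lower without Irf5 and changed by 0.02 with it, and 3 of 18 B lineage genes had a more negative effect without Irf5. The near-identical paralogs Speer2 and Speer3, whose known expression is in testis, were at least 4.22-fold and at least 1.99-fold lower without Irf5, whereas with Irf5 their log2 changes were 2.36 and 2.01. Probes of such copies may read one another, so these count as 1 observation.

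**Figure D5:**
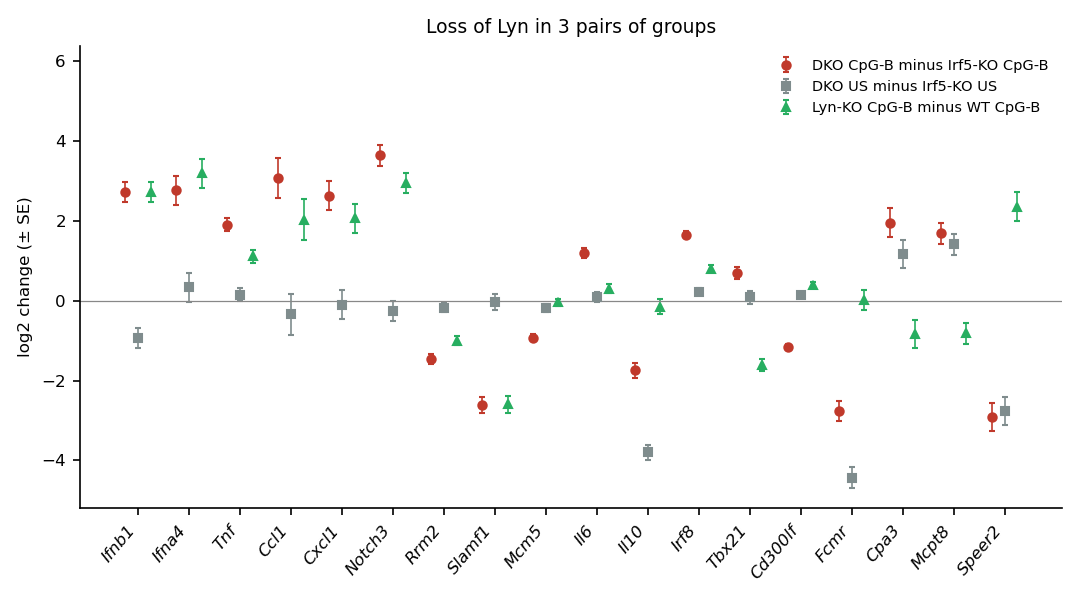
Log2 change with its standard error on loss of Lyn for 18 genes in 3 pairs of groups that share no array: DKO CpG-B minus Irf5-KO CpG-B (red circles), DKO US minus Irf5-KO US (grey squares) and Lyn-KO CpG-B minus WT CpG-B (green triangles). Ifnb1 is raised by about the same amount in both CpG-B pairs, whereas Tbx21, Cd300lf, Mcpt8, Cpa3 and Speer2 lie on opposite sides of 0 in the 2 CpG-B pairs. The unstimulated points of Ifnb1, Ifna4, Ccl1, Notch3, Slamf1, Il10 and Speer2, and the DKO CpG-B side of Speer2, rest on signals that were not well above background on every array.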

How the data were processed

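RNA of 24 cultures was hybridised to 1-colour mouse Agilent arrays, 3 biological replicates for each of 8 groups, and the groups were taken from the labels. The deposited intensity is the processed signal of Agilent Feature Extraction 10.7.3.1 (protocol GE1_107_Sep09), already background-subtracted, per the file headers. A deposited series table holds log2 values that the authors had scaled per array at the 75th percentile and centred on each probe's median. This was found by setting it against the scanner values (correlation 0.9999, median absolute difference 0.00364 after both were centred).

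Control spots and 4351 spot values marked as outliers were left out, and spots of 1 probe were averaged. Of 55681 probes, 26762 carried 1 gene symbol in the files. Each array was log2-transformed, with its 75th percentile subtracted. A probe was kept where every array of some group had it well above background (26640 probes), and the probe with the highest mean stood for each symbol or unnamed accession, which gave 20209 features. No kept probe was saturated. A mean per group was fitted over all 24 arrays with limma 3.58.1 in R 4.3.3. Moderated tests were 2-sided with Benjamini-Hochberg adjustment over all features, at a threshold of 0.05. Each adjusted p in the text comes from this test. The 3 arrays per group limit the precision. The fit was tested on simulated data.

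Genes named were the 15 called genes with the largest rise and the 15 with the largest fall (named, well above background in the brighter group, groups not overlapping), the 8 and 8 of each difference of effects, the members of 32 gene lists, Lyn and Irf5. Some of these genes are not reported here. The members and lists were chosen with earlier results of these data known.

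Alternatives were quantile normalization, normexp with an offset of 50, scaling to a median, no filter or a stricter filter on dim probes, every probe by itself, only the groups compared, the series table, a trended robust variance prior, the slide as a replicate block and each array left out.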

Additional observations from a re-analysis of the deposited data

Results flagged for a closer look

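The difference between the Lyn effect with CpG-B and the Lyn effect without it, both in Irf5-deficient cells, passed the test for 3549 features. Values are differences of effects on the log2 scale, each with limma's adjusted p. Among interferon genes it was 3.65 ± 0.35 (SE) for Ifnb1 (1.1e-06), 2.42 for Ifna4 (0.0025), 2.63 for Ifna14 (1.3e-06) and 3.18 for Ifna2 (2.1e-05). These sizes rest largely on readings at background without CpG-B. Ifnb1 was well above background on 1 of 3 DKO US and 2 of 3 Irf5-KO US arrays, Ifna4 on 0 and 0, Ifna14 on 2 and 3 and Ifna2 on 0 and 2, and they entered the test through the stimulated groups. Among other secreted products it was 1.76 for Tnf (3.1e-05), 3.94 for Lta (1.7e-08), 1.10 for Il6 (0.00016), 3.42 for Ccl1 (0.0023), 2.73 for Cxcl1 (0.00087) and 2.61 for Cxcl2 (0.001). Il10, which was lower in DKO cells in both states, had a difference of 2.06 (2.4e-05), but 0.32 after normexp (adjusted p = 0.276). Lta and Il10 were well above background on no DKO US array and Ccl1 on 1, so their sizes are limited in the same way.

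Beyond secreted products, the receptor gene Notch3 had a difference of 3.90 (7.2e-07), the scavenger receptor Cd36 of 2.49 (3.7e-06) and the antioxidant gene Srxn1 of 2.34 (1.9e-08). Slamf1 (−2.58, adjusted p = 4.9e-06), Rrm2 (−1.29, 1.9e-05) and Mcm5 (−0.747, 0.00028) were more negative with CpG-B. Slamf1 was well above background on no DKO US or Irf5-KO US array and Notch3 on 2 of 3 DKO US arrays. Lyn itself differed by −0.616 ± 0.12 (adjusted p = 0.0015).

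The difference between the Lyn effect in Irf5-deficient cells and that in cells with Irf5, both with CpG-B, passed for 730 features. It was 0.889 ± 0.17 (SE) for Il6 (adjusted p = 0.0057), 0.851 for Irf8 (0.00093) and 2.30 for Tbx21 (1.1e-05). The basophil and mast cell genes Cpa3 (2.80, adjusted p = 0.0032), Mcpt8 (2.51, 0.00077) and Prss34 (1.38, 0.0015) were on the same side. On the other side were Il10 (−1.59, 0.0019), Cd300lf (−1.56, 7.9e-08), Fcmr (−2.78, 0.00023), the helicase genes Mcm2 (−0.713, 0.00089) and Mcm5 (−0.893, 0.00045), and the paralogs Speer2 (−5.28, 1.1e-05) and Speer3 (−4.88, 6.1e-05). Neither paralog was well above background on any DKO CpG-B array, so these 2 are not measured sizes and the DKO side is only a bound. The direction is DKO minus Irf5-KO less Lyn-KO minus WT. No explanation of these differences was tested.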

How the results depend on the processing

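The count of 6677 features called between DKO CpG-B and Irf5-KO CpG-B ran from 5149 to 8334 under the alternatives other than leaving out an array, with the fewest when the other 6 groups were left out and the most when every probe was tested by itself. Leaving out 1 array gave 5504 to 6305 calls, 2926 to 3365 of them higher and 2578 to 2940 lower. The count of at least 2-fold changes, 1127, was 1054 to 1186 without 1 array but 580 after normexp and 505 when a probe had to be well above background on each of the 24 arrays. The second filter tests fewer features by its construction, and the cause of the first drop was not tested. After quantile normalization 3115 features were higher and 3445 lower.

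The difference between the Lyn effects with and without CpG-B passed for 2924 to 3500 features when 1 array was left out. That between the effects without and with Irf5, 730 features, passed for 490 to 922. It passed for 304 with only the 4 groups it compares, a fit on fewer samples, and for 351 with no filter on dim probes, which tests more features. Same-numbered DKO CpG-B and Irf5-KO CpG-B arrays deviated from their group means with correlations of 0.03, −0.01 and 0.05, so the numbers were not taken to pair the samples. With the replicate number, which is also the slide, as a block, 7349 features were called between DKO CpG-B and Irf5-KO CpG-B, 4101 higher, 3248 lower and 1131 by at least 2-fold, and 4151 and 978 for the 2 differences of effects.

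Of 146 named genes called between DKO CpG-B and Irf5-KO CpG-B, 136 kept direction and call under every alternative run for them, and 0 reversed. The other 10 were Bst2, Cd74, Clec9a, Irf5, Itgax, Mpo, Pmvk, Tbx21, Tlr9 and Tnfsf14. For the differences of effects, 90 of 108 called genes with and without CpG-B and 23 of 40 without and with Irf5 kept their calls. After normexp 3 differences of effects that had not passed turned sign and passed: Cth with and without CpG-B (−0.95), and Sardh (−0.83) and Xcl1 (−0.93) without and with Irf5. The cause was not tested.

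Low signal over background limits the size of many changes. After normexp the change of these genes was smaller by more than 1.5 times on the log2 scale, with the same direction and call: Ackr1, Amigo2, Bank1, Cadm3, Cd79a, Cpa3, Endou, Fcer1a, Fndc4, Gfra1, Gm829, Hes5, Ifnk, Il12a, Il19, Mrc1, Muc1, Nqo1, Nrn1, Oosp1, Penk, Sardh, Shisa8, Speer1, Speer2, Speer3, Speer6-ps1, Tbx21, Tnfsf14, Trib2 and Xcl1.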

Other observations

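The named genes whose Lyn effect was most negative with CpG-B relative to none included several with little or no signal in unstimulated cells. Hamp, which encodes the iron hormone hepcidin, averaged −2.50 ± 0.17 in DKO CpG-B and 0.55 ± 0.41 in Irf5-KO CpG-B arrays (SD, n = 3 each), a change of −3.05 (limma adjusted p = 1.19e-05). It was −2.58 ± 0.23 in Lyn-KO CpG-B and 1.47 ± 0.17 in WT CpG-B arrays, and it was well above background on no DKO US or Irf5-KO US array. Muc1, a membrane mucin, and Gfra1, a receptor of the GDNF family, were likewise well above background on all 3 Irf5-KO CpG-B arrays and on no DKO CpG-B, DKO US or Irf5-KO US array. Their falls in DKO CpG-B cells are bounds, at least 3.09-fold for Muc1 and at least 3.11-fold for Gfra1. Kif1a, a kinesin motor of neurons, changed by −2.82 between DKO CpG-B and Irf5-KO CpG-B cells and by −1.64 between Lyn-KO CpG-B and WT CpG-B cells. The difference between these effects passed for Kif1a (−1.17, adjusted p = 0.004) and did not pass for Hamp (1.00, 0.44), although after normexp it did (0.87, 0.0172).

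Of the 8 named genes whose Lyn effect was most negative without Irf5 relative to cells with Irf5, 5 carried a Speer symbol, Speer6-ps1 among them (−5.43, adjusted p = 3.2e-07). Speer6-ps1 was well above background on no DKO CpG-B array, so that value is not a measured size. Speer1 averaged −2.46 ± 0.70 in DKO CpG-B and −0.23 ± 0.36 in Irf5-KO CpG-B arrays, against 3.19 ± 0.22 in Lyn-KO CpG-B and 0.83 ± 0.03 in WT CpG-B arrays (SD, n = 3 each). Without CpG-B it averaged −2.30 ± 0.26 in DKO US and 0.06 ± 0.42 in Irf5-KO US arrays. Speer1 thus read lower in DKO than in Irf5-KO arrays in both states, whereas it read higher in Lyn-KO CpG-B than in WT CpG-B arrays. Probes of these copies may read one another, so they count as 1 observation, and its source was not tested.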
